A study of Homo sapiens with 8 samples.

Results

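The 56 genes described here act in the G2 phase and in mitosis. They were taken by symbol from a table of 25593 genes, and each of the 56 symbols had a single row. RNA was sequenced from HL60 and Kasumi-1, established human lines of acute myeloid leukaemia, after 24 h in medium with 100 nM cinobufagin or with none, and each of the 4 groups has 2 libraries. Cinobufagin, a steroid from toads, inhibits the sodium pump (the Na+/K+-ATPase). HL60 is promyelocytic and has an amplified MYC gene. Kasumi-1 is myeloblastic, has the RUNX1-RUNX1T1 fusion and was grown in richer serum, so that line and serum cannot be told apart. The labels name no vehicle for the untreated cells and leave unsaid whether replicate libraries are from separate cultures, so p-values reflect the spread among these libraries alone, which may be technical. In the order of their roles, the genes comprise 13 cyclins, CDK1 and mitotic kinases with their regulators, 17 genes of the centromere, kinetochore and spindle checkpoint, 8 kinesins, 5 other spindle proteins, 7 genes of anaphase, exit from mitosis and cytokinesis, and 6 of chromosome structure.

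Entry into mitosis is driven by CDK1 bound to cyclin A or B, with the Polo and Aurora kinases acting beside it. Kinetochores, built on centromeres that carry the histone variant CENPA, attach chromosomes to spindle microtubules through the NDC80 complex, and the checkpoint proteins BUB1, BUB1B, MAD2L1 and TTK delay anaphase until attachment is complete. The anaphase-promoting complex with CDC20 and UBE2C then marks cyclin B and securin (PTTG1) for destruction, which frees separase (ESPL1) to part the sister chromatids. Most of these genes are transcribed late in the cell cycle. Their promoters often hold a CHR element, which is bound by the MuvB core of the DREAM complex in resting cells and of the B-MYB and FOXM1 complexes in dividing cells, and CCAAT boxes, which are bound by NF-Y.

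All values are FPKM as deposited, a fragment count scaled to the length of the transcript and to the size of the library. Changes are log2 changes of FPKM + 1, cinobufagin over untreated, from a limma model over all 12511 genes that reached 1 FPKM in at least 2 libraries, and a change is called at a Benjamini-Hochberg adjusted p under 0.05 over all of them. All 56 genes passed that filter. FPKM is scaled within a library, so each change is relative to the other genes. In bulk libraries a larger share of cells in G2 or mitosis and more mRNA in each such cell cannot be told apart.

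The promoters of the genes at both ends of the HL60 response were examined for these elements. The RefSeq table of promoter windows (GRCh38.p14, 250 bases before to 50 bases after the transcript start) held 48 of the 56 genes, 9 of them with several starts, of which the first listed was used. The 8 genes without a window were AURKA, BIRC5, BUB3, FOXM1, PBK, TPX2, TTK and UBE2C. All of these rose in HL60 (log2 changes of 0.26 to 1.79), and none is in the motif counts. The search was for the letters TTTGAA and TTCGAA (the CHR element and a variant) and CCAAT, on both strands. Other forms of the CHR element were not searched, so a window without these letters may still hold one. The windows shown are those of NDC80 and CCNB1, which rose most in HL60, PLK1, a mitotic kinase that rose, and SPC24, which fell. They are written 5′ to 3′ in the direction of transcription, and capitals mark every match, read on either strand.
NDC80: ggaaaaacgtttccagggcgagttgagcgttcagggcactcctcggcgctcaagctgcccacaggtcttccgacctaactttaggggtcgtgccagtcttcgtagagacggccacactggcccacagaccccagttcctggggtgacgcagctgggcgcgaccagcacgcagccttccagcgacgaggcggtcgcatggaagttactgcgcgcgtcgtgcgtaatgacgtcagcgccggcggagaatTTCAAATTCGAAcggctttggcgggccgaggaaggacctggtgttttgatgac
CCNB1: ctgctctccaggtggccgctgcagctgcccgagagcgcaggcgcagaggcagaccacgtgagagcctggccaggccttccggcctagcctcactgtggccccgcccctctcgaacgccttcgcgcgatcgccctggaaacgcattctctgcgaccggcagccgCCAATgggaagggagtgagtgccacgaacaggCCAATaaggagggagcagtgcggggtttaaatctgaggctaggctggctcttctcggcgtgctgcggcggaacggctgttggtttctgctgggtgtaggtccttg
PLK1: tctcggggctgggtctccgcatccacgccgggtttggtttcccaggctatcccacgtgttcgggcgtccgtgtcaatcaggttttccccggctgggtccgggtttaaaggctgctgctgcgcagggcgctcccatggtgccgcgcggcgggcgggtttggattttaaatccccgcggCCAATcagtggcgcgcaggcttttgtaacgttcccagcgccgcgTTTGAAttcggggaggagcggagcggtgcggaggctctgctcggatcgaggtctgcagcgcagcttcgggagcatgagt
SPC24: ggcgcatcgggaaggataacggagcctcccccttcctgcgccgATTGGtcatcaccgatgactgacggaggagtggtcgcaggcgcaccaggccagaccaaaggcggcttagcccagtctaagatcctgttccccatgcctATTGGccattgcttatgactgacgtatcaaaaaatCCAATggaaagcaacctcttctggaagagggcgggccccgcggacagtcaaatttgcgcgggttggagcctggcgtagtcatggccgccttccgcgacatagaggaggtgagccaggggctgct
The windows lie at chr18:2571307-2571606, plus strand (NDC80), chr5:69166900-69167199, plus strand (CCNB1), chr16:23678639-23678938, plus strand (PLK1) and chr19:11155733-11156032, minus strand (SPC24), in the GRCh38.p14 build. NDC80 had both searched CHR forms side by side at its start, TTTGAA on the minus strand from base −3 to base 3 and TTCGAA from base 4 to base 9, counted from the first transcribed base as 1. PLK1 had a CCAAT box that began at base −73 and TTTGAA at base −29. CCNB1 held CCAAT at bases −87 and −55, and SPC24 held 3 CCAAT boxes, and neither held TTTGAA or TTCGAA in this window.

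Across the 48 windows, 35 (72.9%) held TTTGAA or TTCGAA, against 935 of 8381 (11.2%) first windows of tested genes and 4539 of 27305 (16.6%) of all genes in the table. Between 50 bases before and 50 bases after the start the element was found in 28 windows (58.3%), against 3.2% of those of tested genes. CCAAT was found in 34 windows (70.8%), against 37.2% of those of tested genes, and both together in 26 (54.2%), against 4.78%. DNA replication genes, which are transcribed earlier in the cell cycle, held TTTGAA or TTCGAA in 2 of 34 windows and CCAAT in 20. Among the mitotic genes, the 35 with TTTGAA or TTCGAA had a median log2 change of 1.03 in HL60 (0.09 to 2.36) and 32 of them rose. The 13 without these letters, among them CCNB1, had a median of 0.44 (−0.94 to 1.93) and 9 rose. These 13 may hold other forms of the element. Split by CCAAT boxes, the median in HL60 was 0.88 for the 21 genes with 2 or more, and 19 rose. It was 1.05 for the 13 genes with 1 box and 0.90 for the 14 without, and 11 rose in each. Over all tested genes, 36% were called higher in HL60. A match describes letters in a window and is not a bound site, and these medians were not tested against each other.

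**Figure D1:**
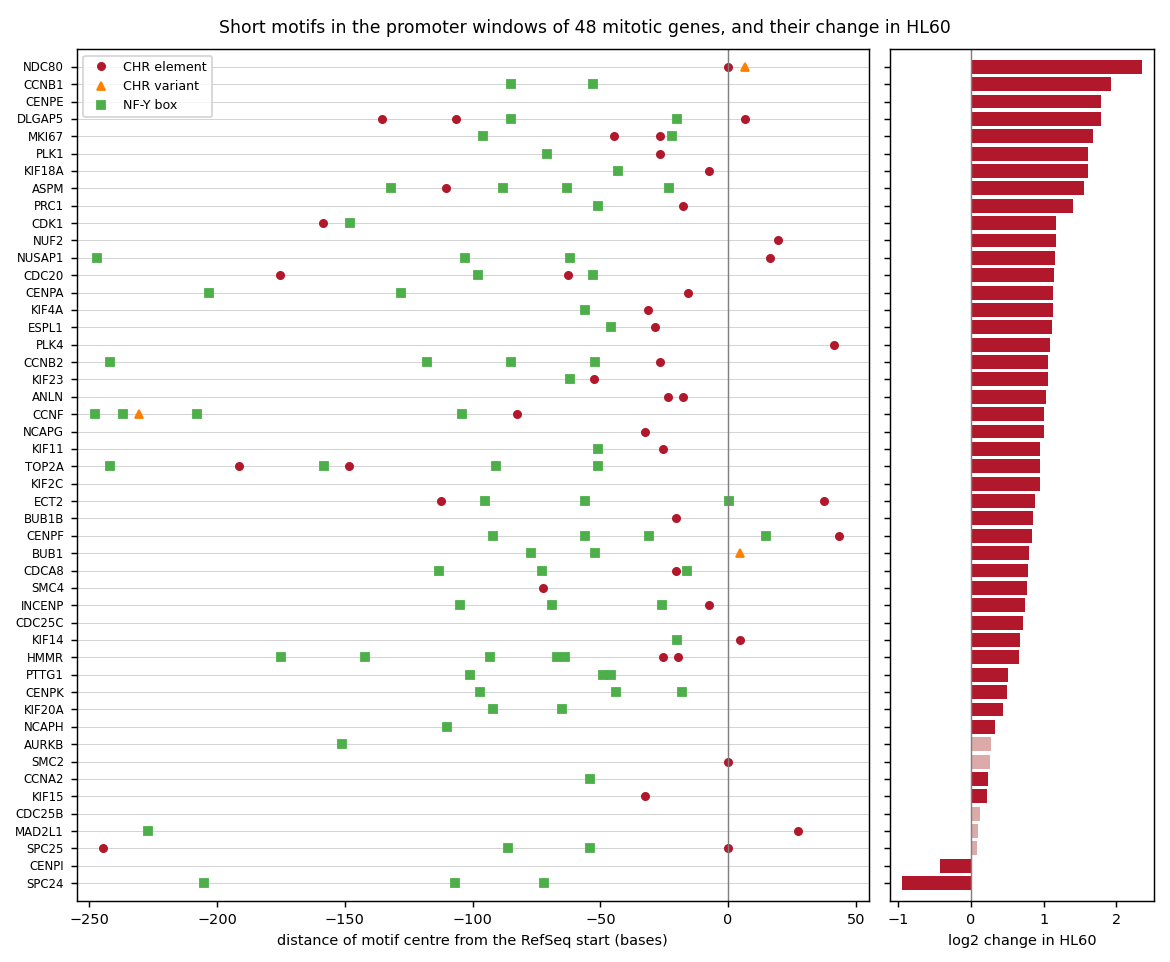
Position of CHR elements (circles), the CHR variant (triangles) and NF-Y boxes (squares) in the promoter windows of 48 mitotic genes, in bases from the RefSeq transcript start, with the log2 change of each gene in HL60 as bars (pale where adjusted p was 0.05 or more). Genes run from the largest rise at the top to SPC24 at the bottom, and 28 of the 48 windows held TTTGAA or TTCGAA within 50 bases of the start.

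The libraries matched the labels of their lines, while the treatment labels had no separate check. Between 10623 and 11371 genes per library reached 1 FPKM, and relative depth, read from the steps between low values, lay between 0.79 and 1.06. RUNX1T1, the fusion partner, had no FPKM above 0 in HL60, while its level was 16.1 and 19.2 FPKM in treated and 17.4 and 20.8 FPKM in untreated Kasumi-1. Of 16 markers of lymphoid, erythroid, stromal, epithelial and endothelial cells, 15 did not pass the filter, and the summed level of the 16 was at most 4.33 FPKM in any library. The marker that passed, CD79A, stood at 3.41 and 2.69 FPKM in untreated HL60. MYC, which drives growth, stood at 30.3 and 29.2 FPKM in treated HL60, against 786 and 749 FPKM in untreated HL60, and at 199 and 202 FPKM in treated Kasumi-1, against 308 and 310 FPKM in untreated Kasumi-1. Short RNAs and repeated symbols took between 55.6% and 59.3% of all FPKM in 3 of the 4 replicate 2 libraries and between 10.3% and 20.6% in the other libraries, so changes were also taken with these rows left out. In GENCODE 29, 14 of the 56 genes overlap an exon of a gene on the opposite strand (among them PLK1, CCNA2, KIF18A, KIF20A, ANLN and NCAPG), 3 share exons with a gene on the same strand (BUB1B, NUSAP1 and PRC1) and 11 have a named pseudogene (among them AURKA, UBE2C, CENPI, BUB3 and MKI67). No source used here gives the strand setting of the quantification, so reads of these partners could not be told apart with certainty.

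The first question was how cinobufagin changed these genes in HL60. In treated HL60, 49 of the 56 genes were higher and 2 lower than in untreated HL60, against 36% and 37.6% of all tested genes (73.6% in either direction), and 26 rose at least 2-fold, against 11.9% of all tested genes. Their median log2 change was 0.95, with quartiles at 0.51 and 1.16, against −0.01 for all tested genes. The summed level of the 56 genes was 3315 and 3202 FPKM in treated HL60, against 1574 and 1565 FPKM in untreated HL60, or 0.621% and 0.607% of the FPKM outside short RNAs and repeated symbols, against 0.254% and 0.266%. The treated and untreated libraries did not overlap for any of the 56 genes: both treated libraries were above both untreated ones for 54 genes and below them for 2, where 42.2% and 44.7% of all tested genes did so. Between same-numbered libraries the median change was 0.99 for replicate 1 and 0.92 for replicate 2, against 0 and −0.01 for all tested genes. That every gene moved the same way in both follows from the lack of overlap and adds nothing to it.

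**Figure D2:**
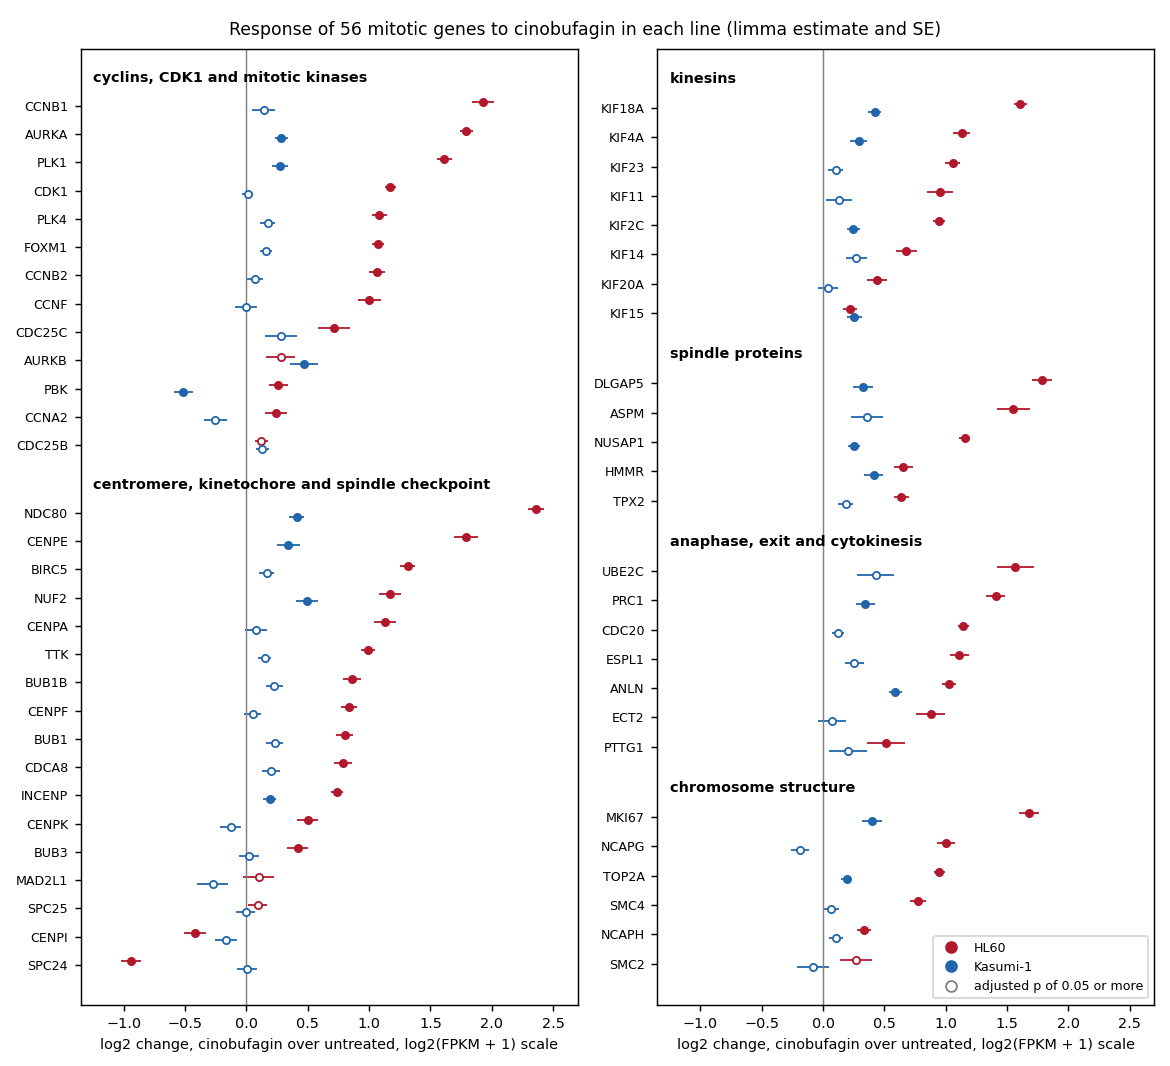
Log2 change of the 56 genes (cinobufagin over untreated, log2(FPKM + 1) scale) by role, with the limma standard error as bars, HL60 in red and Kasumi-1 in blue. Filled points were called at an adjusted p under 0.05. In HL60, 49 genes were called higher and SPC24 and CENPI lower, while Kasumi-1 values lie between −0.52 and 0.59.

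Among the 13 cyclins, CDK1 and mitotic kinases, 11 rose in HL60 and 2 were not called, with a median of 1.06. CCNB1, the cyclin that takes CDK1 into mitosis, stood at 89.1 and 84.5 FPKM in treated HL60, against 22.7 and 21.4 FPKM in untreated HL60, a log2 change of 1.93 (SE 0.0924, adjusted p = 4.26e-06). Both treated libraries were about 4 times the untreated ones. CDK1 itself stood at 130 and 127 FPKM in treated HL60, against 56.9 and 56.2 FPKM in untreated HL60 (1.17, SE 0.0446, adjusted p = 1.8e-06). AURKA, the Aurora kinase of the centrosome and spindle poles, stood at 111 and 109 FPKM in treated HL60, against 31.8 and 30.4 FPKM in untreated HL60 (1.79, SE 0.0525, adjusted p = 7.24e-07). PLK1, the Polo kinase that helps to activate CDK1, stood at 109 and 119 FPKM in treated HL60, against 35.5 and 37.8 FPKM in untreated HL60 (1.61). These 4 genes rose by more than 2-fold, with no overlap between the groups. FOXM1, a transcription factor of G2 genes, stood at 61.3 and 63.4 FPKM in treated HL60, against 29.8 and 28.4 FPKM in untreated HL60 (1.07, SE 0.049). PLK4, which starts centriole duplication, CCNB2 and CCNF, a cyclin that serves a ubiquitin ligase, rose by 1.08, 1.06 and 1.00 on the log2 scale, and CDC25C, a phosphatase that activates CDK1, by 0.71.

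The other members of this role moved little. CCNA2, cyclin A2, which serves both S phase and G2, stood at 37.2 and 39.8 FPKM in treated HL60, against 31.3 and 33.6 FPKM in untreated HL60, a log2 change of 0.24 (SE 0.0904, adjusted p = 0.048). Its call was lost without each library other than those of treated Kasumi-1 (adjusted p between 0.0577 and 0.198). It was also lost with a pseudocount of 0.1 (0.0506), without the filter (0.0749), with quantile normalization (0.177) and without the intensity trend (0.0566). PBK, a kinase active in mitosis, stood at 10.9 and 10.1 FPKM in treated HL60, against 8.7 and 8.47 FPKM in untreated HL60 (0.26, SE 0.0772, adjusted p = 0.0202), and its call was lost without untreated replicate 1 (0.0606), untreated replicate 2 (0.0883) or treated replicate 1 (0.111) of HL60. AURKB, the kinase of the chromosomal passenger complex, was not called, at 30.8 and 31.3 FPKM in treated HL60, against 26.9 and 23.9 FPKM in untreated HL60 (0.28, SE 0.117, adjusted p = 0.0671). CDC25B, a phosphatase that acts early in G2, was not called either, at 13.7 and 13.4 FPKM in treated HL60, against 12.4 and 12.4 FPKM in untreated HL60 (0.12, adjusted p = 0.0686). The cyclins had unequal changes: the level of CCNB1 was 2.39 and 2.12 times that of CCNA2 in treated HL60, against 0.725 and 0.637 times in untreated HL60. AURKA stood at 3.61 and 3.49 times the level of AURKB in treated HL60, against 1.18 and 1.27 times in untreated HL60.

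The kinetochore group had the widest range. Of its 17 genes 13 rose, 2 fell and 2 were not called, with a median of 0.80. NDC80, the kinetochore subunit that binds microtubules, stood at 115 and 105 FPKM in treated HL60, against 20.6 and 20.7 FPKM in untreated HL60, a log2 change of 2.36 (SE 0.0641, adjusted p = 5.45e-07), the largest rise of the 56. Its dimer partner NUF2 stood at 56.5 and 53 FPKM in treated HL60, against 25.2 and 22.4 FPKM in untreated HL60 (1.17, SE 0.0901, adjusted p = 3.46e-05). NDC80 and NUF2 form the outer part of the complex, which holds the microtubule, and SPC24 and SPC25 the inner part, which holds the centromere. SPC24 fell, to 7.05 and 8.27 FPKM in treated HL60, against 15 and 16.2 FPKM in untreated HL60 (−0.94, SE 0.0832, adjusted p = 6.67e-05). SPC25 was not called, at 15.7 and 14.7 FPKM in treated HL60, against 14.2 and 14.2 FPKM in untreated HL60 (0.09, SE 0.0765, adjusted p = 0.321). The 4 subunits occur once each in the complex, and their mRNA levels stood further apart in treated cells: NDC80 had 16.4 and 12.7 times the level of SPC24 in treated HL60, against 1.37 and 1.28 times in untreated HL60. The gene pairs given here as ratios were chosen after their values were seen.

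**Figure D3:**
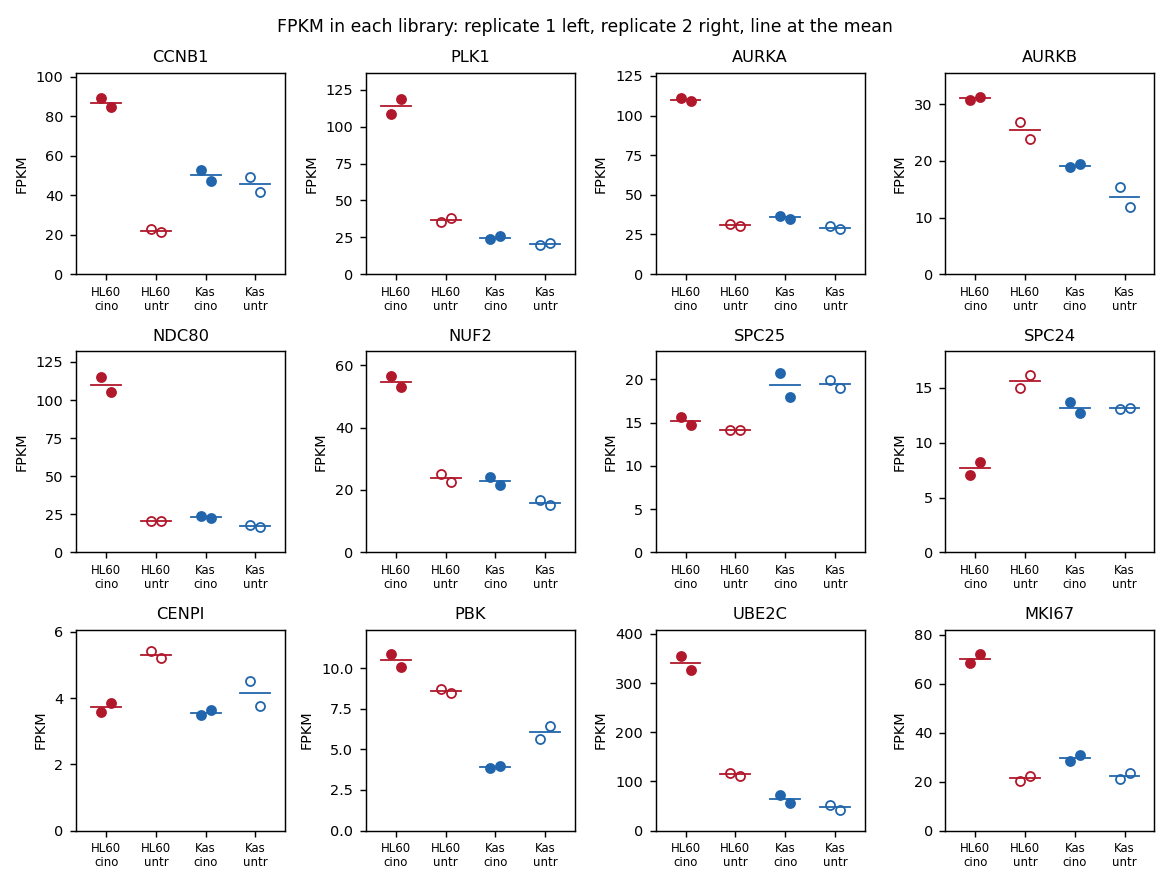
FPKM in each library for 12 of the genes, with replicate 1 left and replicate 2 right in each group and a line at the mean, treated cells as filled points and untreated cells as open points, HL60 in red and Kasumi-1 in blue. Each vertical axis starts at 0 and has its own scale. NDC80 and NUF2 are higher in treated HL60, SPC24 and CENPI are lower there, and PBK is higher in treated HL60 but lower in treated Kasumi-1.

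At the centromere, CENPA, the histone variant that marks it, stood at 30.6 and 27.4 FPKM in treated HL60, against 12.7 and 12.7 FPKM in untreated HL60 (1.13, SE 0.0895), and rose. CENPI, of the inner kinetochore network, fell, to 3.59 and 3.86 FPKM in treated HL60, against 5.42 and 5.2 FPKM in untreated HL60 (−0.42, SE 0.0893, adjusted p = 0.00479). CENPK of the same network rose by 0.50. CENPE, the kinesin of the kinetochore, stood at 21.7 and 21.7 FPKM in treated HL60, against 5.41 and 5.74 FPKM in untreated HL60 (1.79, SE 0.0958, adjusted p = 6.83e-06), and CENPF, a large protein of the outer kinetochore, rose by 0.84. SPC24 and CENPI stayed called lower in HL60 in every alternative run, with values from −1.04 to −0.77 and from −0.50 to −0.27.

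The chromosomal passenger complex corrects wrong attachments. Its subunit survivin, BIRC5, stood at 81.5 and 86.2 FPKM in treated HL60, against 32.1 and 34.2 FPKM in untreated HL60 (1.31, SE 0.0586). Borealin, CDCA8, stood at 50.6 and 52.4 FPKM in treated HL60, against 30.5 and 28.4 FPKM in untreated HL60 (0.79), and INCENP, the scaffold, at 27.4 and 26.8 FPKM in treated HL60, against 15.6 and 16 FPKM in untreated HL60 (0.74). These 3 subunits rose, while their kinase AURKB was not called. In the checkpoint, TTK, BUB1B, BUB1 and BUB3 rose by 0.99, 0.86, 0.80 and 0.42. MAD2L1, the protein that holds CDC20 in check, was not called, at 66.7 and 67 FPKM in treated HL60, against 59.5 and 65.3 FPKM in untreated HL60 (0.10, SE 0.127, adjusted p = 0.51).

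All 8 kinesins rose in HL60, with a median of 0.95. KIF18A, which dampens chromosome movement at the spindle equator, stood at 17.5 and 17.9 FPKM in treated HL60, against 5.15 and 5.11 FPKM in untreated HL60 (1.61, SE 0.0535, adjusted p = 1.1e-06). KIF4A, a motor of chromosome arms and the central spindle, stood at 26.5 and 26.5 FPKM in treated HL60, against 11 and 12.3 FPKM in untreated HL60 (1.13). Treated levels of KIF18A were more than 3 times the untreated ones. KIF23 of the central spindle rose by 1.05, KIF11, which pushes the spindle poles apart, by 0.95, KIF2C, which shortens microtubules, by 0.95, KIF14, which acts in cytokinesis, by 0.68 and KIF20A, of the central spindle, by 0.44. The smallest change was that of KIF15, at 18.6 and 17.4 FPKM in treated HL60, against 15.2 and 15.4 FPKM in untreated HL60 (0.22, adjusted p = 0.0122), and its call was lost without untreated replicate 1 (0.0609) or treated replicate 1 (0.0707) of HL60 and with quantile normalization (0.0539).

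The 5 other spindle proteins rose as well, with a median of 1.15. DLGAP5, which stabilises fibres at kinetochores, stood at 53.8 and 54.4 FPKM in treated HL60, against 13.9 and 16.1 FPKM in untreated HL60 (1.78, SE 0.0832). ASPM, of the spindle poles, stood at 27.4 and 26.7 FPKM in treated HL60, against 8.08 and 9.06 FPKM in untreated HL60 (1.55, SE 0.133). NUSAP1, which bundles microtubules, and HMMR, which binds microtubules at the poles, rose by 1.15 and 0.66, and TPX2, the activator of AURKA, had the smallest rise, at 64.8 and 66.6 FPKM in treated HL60, against 40.8 and 42.9 FPKM in untreated HL60 (0.64).

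Genes of anaphase, exit and cytokinesis all rose, 7 of 7, with a median of 1.11. UBE2C, the ubiquitin-conjugating enzyme of the anaphase-promoting complex, stood at 356 and 327 FPKM in treated HL60, against 118 and 112 FPKM in untreated HL60 (1.56, SE 0.15, adjusted p = 9.84e-05), and had the highest level of the 56 genes in both HL60 groups. PRC1, which bundles the central spindle, stood at 119 and 114 FPKM in treated HL60, against 44.9 and 41.7 FPKM in untreated HL60 (1.41, SE 0.0774). CDC20, separase (ESPL1), ANLN, a scaffold of the cleavage furrow, and ECT2, which activates RhoA there, rose by 1.14, 1.11, 1.03 and 0.88. Securin, PTTG1, stood at 164 and 145 FPKM in treated HL60, against 114 and 101 FPKM in untreated HL60 (0.51, SE 0.155, adjusted p = 0.0214), the smallest rise of the role, and its call was lost without untreated replicate 2 (0.104) or treated replicate 1 (0.114) of HL60.

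Of the 6 genes of chromosome structure 5 rose, with a median of 0.86. MKI67, which coats mitotic chromosomes and is the source of the Ki-67 proliferation marker, stood at 68.4 and 72.1 FPKM in treated HL60, against 20.1 and 22.5 FPKM in untreated HL60 (1.68, SE 0.0814). TOP2A, which untangles DNA, rose by 0.95. Condensin I subunits changed unequally. NCAPG stood at 32 and 33 FPKM in treated HL60, against 15.4 and 16.1 FPKM in untreated HL60 (1.00), and SMC4 at 86 and 83.4 FPKM in treated HL60, against 47.4 and 51.1 FPKM in untreated HL60 (0.77). NCAPH, the subunit that closes the ring, stood at 23.6 and 22 FPKM in treated HL60, against 18 and 17.8 FPKM in untreated HL60 (0.33), and these 3 rose. SMC2 was not called, at 11 and 11.1 FPKM in treated HL60, against 7.99 and 10.1 FPKM in untreated HL60 (0.27, SE 0.131, adjusted p = 0.105).

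Of the 51 calls in HL60, 47 held under every alternative, and those of CCNA2, KIF15, PBK and PTTG1 were the exceptions. With short RNAs and repeated symbols left out and the libraries rescaled, SMC2, SPC25, CDC25B and AURKB were called higher too (adjusted p = 0.0319, 0.0109, 0.0119 and 0.00258), for 53 rises and 2 falls. In that run the median change of all tested genes moved from −0.01 to 0.08. Rises made up 57% of the calls over all genes, against 48.9% as deposited. MAD2L1 was not called in any alternative, and its value was 0.00 with quantile normalization.

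The second question was how the same genes changed in Kasumi-1. There 18 of the 56 genes were higher and 1 lower in treated cells, against 10.1% and 16.2% of all tested genes, and 37 were not called. At an unadjusted p under 0.05 the counts were 32 and 3, but no share of all tested genes was taken at that threshold. The median log2 change was 0.18, against −0.04 for all tested genes, and none of the rises reached 2-fold, as did 0.32% of all tested genes. The summed level was 1559 and 1540 FPKM in treated Kasumi-1, against 1401 and 1367 FPKM in untreated Kasumi-1. Both treated libraries were above both untreated ones for 35 genes and below them for 5, where 25.6% and 35.9% of all tested genes did so, and the groups overlapped for 16. The median change was 0.16 between the replicate 1 libraries and 0.19 between the replicate 2 libraries, against −0.04 and −0.03 for all tested genes. Of the 56 genes, 44 were higher and 7 lower in both, but the matching share of all tested genes was not taken.

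ANLN had the largest change in Kasumi-1, at 29.4 and 31.5 FPKM in treated Kasumi-1, against 19.4 and 20.4 FPKM in untreated Kasumi-1, a log2 change of 0.59 (SE 0.0542, adjusted p = 0.00191). NUF2 stood at 24.2 and 21.5 FPKM in treated Kasumi-1, against 16.8 and 15.1 FPKM in untreated Kasumi-1 (0.49, adjusted p = 0.0116), and NDC80 at 23.7 and 22.7 FPKM in treated Kasumi-1, against 17.9 and 16.6 FPKM in untreated Kasumi-1 (0.41, SE 0.0641, adjusted p = 0.00706). The groups did not overlap for these 3. AURKB stood at 18.9 and 19.4 FPKM in treated Kasumi-1, against 15.4 and 11.9 FPKM in untreated Kasumi-1 (0.47, SE 0.117, adjusted p = 0.0302). Its call was lost without untreated replicate 2 (0.0788), treated replicate 1 (0.0939) or treated replicate 2 (0.109) of Kasumi-1 and without either treated HL60 library (0.0581 and 0.0583). The call of NUF2 was lost without untreated replicate 2 (0.0595) or treated replicate 1 (0.0559) of Kasumi-1. UBE2C was not called, at 73.1 and 55.9 FPKM in treated Kasumi-1, against 52.9 and 42.1 FPKM in untreated Kasumi-1 (0.43, SE 0.15, adjusted p = 0.0803), although both treated libraries were above both untreated ones.

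PBK fell in Kasumi-1, to 3.87 and 3.97 FPKM in treated cells, against 5.64 and 6.45 FPKM in untreated ones (−0.52, SE 0.0772, adjusted p = 0.00615). That call was lost with Kasumi-1 fitted alone, where no member was called lower. The next lowest values after that of PBK were not called. MAD2L1 stood at 39.1 and 49.9 FPKM in treated Kasumi-1, against 49.6 and 58.1 FPKM in untreated Kasumi-1 (−0.28, adjusted p = 0.159). CCNA2 stood at 17.6 and 20.8 FPKM in treated Kasumi-1, against 22 and 24 FPKM in untreated Kasumi-1 (−0.25, adjusted p = 0.0861), and NCAPG at 16.7 and 19.1 FPKM in treated Kasumi-1, against 20 and 21 FPKM in untreated Kasumi-1 (−0.19, adjusted p = 0.102). SPC24, which fell in HL60, was not called here, at 13.7 and 12.7 FPKM in treated Kasumi-1, against 13.1 and 13.2 FPKM in untreated Kasumi-1. Nor was CENPI, at 3.49 and 3.63 FPKM in treated Kasumi-1, against 4.53 and 3.75 FPKM in untreated Kasumi-1.

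By role, 3 of the 13 cyclins and kinases rose in Kasumi-1 (AURKA, PLK1 and AURKB) and 1 fell, with a median of 0.14. CCNB1 was not called, at 52.8 and 47.3 FPKM in treated Kasumi-1, against 49.2 and 41.7 FPKM in untreated Kasumi-1 (0.14, adjusted p = 0.317), nor was CDK1, at 62 and 64.6 FPKM in treated Kasumi-1, against 63.7 and 61.9 FPKM in untreated Kasumi-1 (0.01), nor FOXM1, at 12.8 and 12.4 FPKM in treated Kasumi-1, against 11.2 and 11.2 FPKM in untreated Kasumi-1 (0.16, adjusted p = 0.0569). Of the kinetochore genes 4 of 17 rose (NUF2, NDC80, CENPE and INCENP), with a median of 0.15. Of the kinesins 4 of 8 rose, led by KIF18A at 7.33 and 7.53 FPKM in treated Kasumi-1, against 5.34 and 5.26 FPKM in untreated Kasumi-1 (0.42, adjusted p = 0.00389), with a median of 0.25. Of the spindle proteins 3 of 5 rose (HMMR, DLGAP5 and NUSAP1, median 0.33), and the groups overlapped for none of the 5. Among the anaphase and exit genes ANLN and PRC1 rose (median 0.25), and of the chromosome genes MKI67 and TOP2A (median 0.08).

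These small changes depended on the fit. With Kasumi-1 fitted alone, which leaves fewer libraries to estimate the spread, 2 genes rose, namely ANLN and NDC80, the genes whose call held in every alternative. Calls over all tested genes fell as well, from 3292 to 1040. With any 1 Kasumi-1 library left out, fewer of the 56 genes were called, and fewer of all tested genes as well. The median change of the 56 genes was then between 0.16 and 0.20, against −0.05 to −0.02 for all tested genes. Rescaling moved the count too, to 29 rises by median ratios or quantiles and to 11 without short RNAs, with 1 fall in each. Calls over all tested genes then numbered 3230 by median ratios, 3468 by quantiles and 2790 without short RNAs. The share of rises among all calls in Kasumi-1 was 38.5% as deposited and 51.7% after median ratio rescaling.

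**Figure D4:**
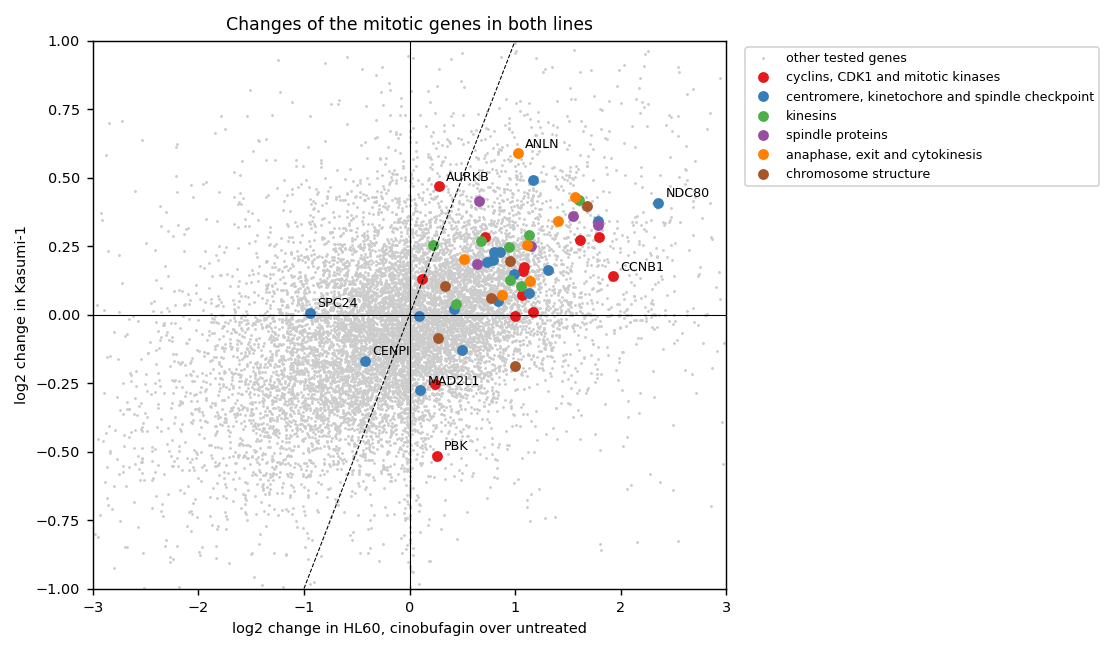
Log2 change in Kasumi-1 against log2 change in HL60 (cinobufagin over untreated), with the 56 genes coloured by role and other tested genes in grey; the dashed line marks equal change, and 353 tested genes lie outside the axes. Most coloured points lie to the right of the dashed line; SPC24 and CENPI are left of 0 on the horizontal axis, AURKB is near the line and PBK is below 0 on the vertical axis.

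The difference between the responses was tested directly. The change in Kasumi-1 was lower than that in HL60 for 45 of the 56 genes and higher for 1, against 33.1% and 30.1% of all tested genes (63.1% in either direction), and 17 of the 45 differed by at least 2-fold, against 10.3% of all tested genes. The median difference was −0.78, against −0.03 for all tested genes. It was largest for NDC80, at −1.95 (SE 0.0906, adjusted p = 1.22e-05), and for CCNB1, at −1.79 (SE 0.131, adjusted p = 6.45e-05). SPC24 was the gene with a higher change in Kasumi-1, by 0.95 (SE 0.118, adjusted p = 0.000607). For PBK, which rose in HL60 and fell in Kasumi-1, the difference was −0.77 (adjusted p = 0.00106). For 10 genes no difference was called, among them AURKB (0.19, SE 0.165), KIF15 (0.03, SE 0.0823) and HMMR (−0.24, SE 0.108). Without untreated Kasumi-1 replicate 1, the median difference was −0.81, against −0.04 for all tested genes. Leaving out short RNAs moved the median difference of all genes from −0.03 to −0.20 and that of the 56 genes to −0.98, with 50 called lower and 1 higher, and the share of higher calls among all genes was 37.1%, against 47.6% as deposited. Of the 49 genes that rose in HL60, 17 also rose in Kasumi-1, 1 fell and 31 were not called. Of all 56 genes, 32.1% rose in Kasumi-1, close to the share among those 49. No matching count over all tested genes was taken. Across the 56 genes, which share libraries and are not independent replicates, the changes of the lines had a Spearman's rho of 0.54, against 0.40 across all tested genes.

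Starting levels were also compared. Untreated Kasumi-1 had 13 of the 56 genes higher and 24 lower than untreated HL60, against 35.9% and 33.8% of all tested genes (69.7% in either direction), with a median difference of −0.14. The lower genes were led by NUSAP1, at 23.3 and 23.6 FPKM in untreated Kasumi-1, against 67.3 and 66.7 FPKM in untreated HL60 (−1.48, adjusted p = 6.17e-07). BUB1B stood at 14.5 and 13.7 FPKM in untreated Kasumi-1, against 38.6 and 37.6 FPKM in untreated HL60 (−1.37). FOXM1 stood at 11.2 and 11.2 FPKM in untreated Kasumi-1, against 29.8 and 28.4 FPKM in untreated HL60 (−1.30). These 3 genes and UBE2C (52.9 and 42.1 FPKM in untreated Kasumi-1, against 118 and 112 FPKM in untreated HL60) were lower by more than 2-fold, as were 10.2% of all tested genes, with no overlap. Among the higher genes, CCNB1 stood at 49.2 and 41.7 FPKM in untreated Kasumi-1, against 22.7 and 21.4 FPKM in untreated HL60 (1.01, adjusted p = 8.65e-05). SMC2 stood at 17.3 and 20.4 FPKM in untreated Kasumi-1, against 7.99 and 10.1 FPKM in untreated HL60 (0.99). KIF20A stood at 13.2 and 12.5 FPKM in untreated Kasumi-1, against 6.9 and 6.33 FPKM in untreated HL60 (0.86). CDC25C stood at 5.96 and 5.36 FPKM in untreated Kasumi-1, against 3.98 and 3.3 FPKM in untreated HL60 (0.52, adjusted p = 0.0112). Its call was lost without HL60 untreated replicate 2 (0.0659) or Kasumi-1 untreated replicate 1 (0.0601). Levels of the 56 genes spanned a wide range in each group. Means ran from 3.72 (CENPI) to 342 FPKM (UBE2C) in treated HL60 and from 3.64 (CDC25C) to 115 FPKM (UBE2C) in untreated HL60. In Kasumi-1 they ran from 3.56 (CENPI) to 108 FPKM (BUB3) in treated cells and from 4.14 (CENPI) to 106 FPKM (BUB3) in untreated ones.

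Other genes of the pathway were counted from lists, whose counts stand against the 36% of all tested genes called higher and the 37.6% called lower in HL60, and the 10.1% and 16.2% in Kasumi-1. For the list counts at an unadjusted p, no share of all tested genes was taken. Cohesin and the other condensin subunits rose in HL60 in 13 of 13 cases, with a median of 0.61, led by STAG1, a cohesin subunit, at 15.9 and 15.1 FPKM in treated HL60, against 7.65 and 8.12 FPKM in untreated HL60 (0.89), and NCAPG2 of condensin II (0.89). In Kasumi-1, limma called 0 of these higher and 1 lower (0 and 4 at an unadjusted p under 0.05). Of 26 other genes of the spindle, centrosome and cytokinesis 16 rose and 4 fell in HL60 (median 0.32), with DEPDC1 at 1.70, RACGAP1, the partner of KIF23, at 1.29 and TUBG1, gamma-tubulin, and the kinesin KIF2A at −0.62 and −0.48, and 9 rose and 2 fell in Kasumi-1. Of 33 other centromere and kinetochore genes 13 rose and 12 fell in HL60 (median 0.07), shares close to those of all tested genes. HJURP, the chaperone that loads CENPA, stood at 72.2 and 66.2 FPKM in treated HL60, against 22.9 and 21.4 FPKM in untreated HL60 (1.60), and SKA2, of the outer kinetochore, rose by 1.5. MIS18A, which prepares the centromere for new CENPA, fell to 7.61 and 7.29 FPKM in treated HL60, against 24.7 and 24.9 FPKM in untreated HL60 (−1.61), and CENPH, of the same inner network as CENPI and CENPK, fell by 1.22 on the log2 scale. In Kasumi-1, 4 of these 33 rose and 7 fell.

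**Figure D5:**
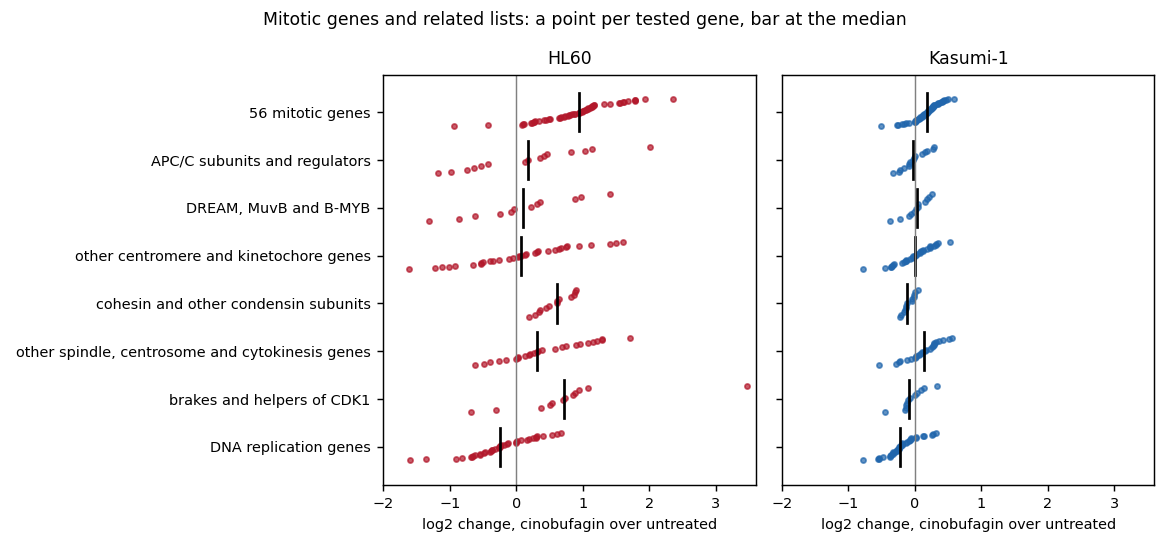
Log2 change (cinobufagin over untreated) of each tested gene of the 56 mitotic genes and of 7 related lists, HL60 on the left and Kasumi-1 on the right, with a bar at each median. The median of the mitotic genes lies at 0.95 in HL60 and 0.18 in Kasumi-1, and that of the DNA replication genes at −0.25 and −0.22.

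The anaphase-promoting complex and its regulators had 8 rises and 6 falls of 15 in HL60 (median 0.18), against 36% and 37.6% of all tested genes, so that the share of falls was close to that of all genes. UBE2S, which extends ubiquitin chains for the complex, stood at 273 and 253 FPKM in treated HL60, against 69 and 60.1 FPKM in untreated HL60 (2.01), and FBXO5, its inhibitor, rose by 1.13, while the core subunits ANAPC4 and ANAPC1 fell by 1.18 and 0.99 on the log2 scale. In Kasumi-1, limma called 0 higher and 2 lower (3 and 2 at an unadjusted p under 0.05). The list of DREAM, MuvB and B-MYB had 5 rises and 4 falls of 12 in HL60 (median 0.10), also close to the shares of all tested genes. The MuvB subunits LIN52 and LIN54 stood at log2 changes of 1.41 and 0.97 and the E2F partner TFDP2 and E2F5 at −1.31 and −0.87, and in Kasumi-1 limma called 0 higher and 1 lower (1 and 2 at an unadjusted p under 0.05). Brakes and helpers of CDK1 rose in 10 of 12 cases and fell in 1 in HL60 (median 0.71). CDKN1A, the CDK inhibitor p21, stood at 17.5 and 17.5 FPKM in treated HL60, against 0.617 and 0.733 FPKM in untreated HL60 (3.47). CKS2, a small subunit of CDK1, rose by 1.08, and the checkpoint kinase CHEK2 fell by 0.68 on the log2 scale. In Kasumi-1, limma called 0 of the 12 (2 higher and 2 lower at an unadjusted p under 0.05), and there CDKN1A stood at 0.373 and 0.224 FPKM in treated Kasumi-1, against 0.414 and 0.443 FPKM in untreated Kasumi-1. The DNA replication genes fell more often than they rose, in HL60 by 23 to 8 of 39 (median −0.25) and in Kasumi-1 by 20 to 2 (median −0.22). POLD2, a subunit of DNA polymerase delta, and PRIM1, of primase, fell by 1.60 and 1.36 on the log2 scale in HL60, and ORC6 and PCNA rose by 0.68 and 0.61.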

How the data were processed

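Per the labels' protocols, total RNA was taken up with RNeasy and turned into stranded mRNA libraries (TruSeq). The authors deposited FPKM values, 1 column per library, and all 8 columns were used. The submitters' processing notes list bcl2fastq 2.20.0, HISAT2 2.1.0, Cufflinks 2.2.1 and hg19; annotation and filters are unstated. No read totals or lengths were at hand, so no count model was fitted and no counting interval set. Depth is known only relative to untreated HL60 replicate 1, from the steps between values under 0.3 FPKM.

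Values were transformed to log2(FPKM + 1), which understates the change of low genes, and fitted with limma 3.58.1 (R 4.3.3, intensity trend) with a mean for each group, leaving 4 residual degrees of freedom. Genes with at least 1 FPKM in at least 2 libraries were tested, 12511 in all. The 4 contrasts were the effect of cinobufagin in HL60, that in Kasumi-1, the second minus the first, and the untreated lines (Kasumi-1 minus HL60). Benjamini-Hochberg adjustment covered every gene tested in a contrast. Permuting 2 against 2 libraries could not reach the threshold and was not done. Promoters were searched with Python 3.11.15.

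The members and lists were chosen with earlier results of these data known. Every member is named, with values in each library for central genes, the largest and smallest changes of each role, those called lower or not called in HL60, the 4 largest changes per direction in Kasumi-1 and between untreated lines, and the members of 3 complexes. From each other list up to 2 called genes per direction in HL60 are named. Alternatives were a pseudocount of 0.1, no filter, a filter at 5 FPKM, median ratio rescaling, quantile normalization, leaving out short RNAs and repeated symbols, 2 forms of replicate block, no intensity trend, each line alone, and leaving out each library.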

Additional observations from a re-analysis of the deposited data

Results flagged for a closer look

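Each value here is the log2 change in Kasumi-1 minus that in HL60, tested as a contrast of the limma model with adjustment over all 12511 genes. A gene is listed where the adjusted p was under 0.05, which held for 63.1% of all tested genes. The cause of these differences was not tested. Among the cyclins and kinases the difference was −1.79 for CCNB1, −1.51 for AURKA, −1.34 for PLK1, −1.16 for CDK1, −1.0 for CCNF, −0.99 for CCNB2, −0.92 for FOXM1, −0.91 for PLK4, −0.77 for PBK and −0.49 for CCNA2. For genes of the kinetochore it came to −1.95 for NDC80, −1.45 for CENPE, −1.15 for BIRC5, −1.05 for CENPA, −0.84 for TTK, −0.79 for CENPF, −0.68 for NUF2, −0.63 for BUB1B, −0.63 for CENPK, −0.59 for CDCA8, −0.57 for BUB1, −0.55 for INCENP, −0.40 for BUB3 and 0.95 for SPC24. Kinesins differed by −1.19 for KIF18A, −0.95 for KIF23, −0.84 for KIF4A, −0.82 for KIF11, −0.70 for KIF2C, −0.41 for KIF14 and −0.40 for KIF20A. The spindle proteins had differences of −1.46 for DLGAP5, −1.19 for ASPM, −0.90 for NUSAP1 and −0.45 for TPX2. In the genes of anaphase and exit the values were −1.14 for UBE2C, −1.07 for PRC1, −1.02 for CDC20, −0.86 for ESPL1, −0.80 for ECT2 and −0.44 for ANLN. Genes of chromosome structure differed by −1.28 for MKI67, −1.19 for NCAPG, −0.75 for TOP2A, −0.71 for SMC4 and −0.23 for NCAPH.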

How the results depend on the processing

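In HL60 the count of members called stayed within 1.5 times of 51 in every alternative run, and MAD2L1, not called, stood at −0.001678 with quantile normalization. In Kasumi-1 the count of 19 members (18 higher, 1 lower) became 30 (29 higher) with median ratio rescaling and with quantile normalization, 12 (11 higher) without short RNAs and repeated symbols, and 2 (2 higher, 0 lower) with each line fitted alone. Over all tested genes the 3292 calls became 3230 with median ratio rescaling and 3468 with quantile normalization. They became 2790 without short RNAs and repeated symbols and 1040 with each line fitted alone. Leaving out 1 library gave 8 to 17 members called in Kasumi-1, 7 to 16 of them higher and 1 to 4 lower, and 1 to 3 members with a higher change in Kasumi-1 than in HL60. In every run with 1 library left out, fewer of all tested genes were called in Kasumi-1 as well. With the replicate number as a block, 35 members were called in Kasumi-1 (31 higher, 4 lower). With a block within each line, 34 were called (30 higher, 4 lower). Calls over all tested genes grew as well, from 3292 to 4749 and 4714. The labels give the libraries of each group the numbers 1 and 2 without saying what they share. The deviations of same-numbered libraries correlated at 0.125 to 0.331 between groups, and at 0.274 to 0.431 without short RNAs.

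Some uncalled values in Kasumi-1 lay near 0 and changed sign. Without short RNAs BUB3 stood at −0.008037, CDK1 at −0.01808 and SPC24 at −0.02115. CCNF stood at 0.04449 with median ratio rescaling and at 0.03706 with quantile normalization, and SPC25 at 0.04984 and 0.01845 under the same settings. With 1 library left out, log2 changes ranged from −0.06165 to 0.1048 for BUB3, −0.07095 to 0.06242 for CCNF, −0.01824 to 0.04085 for CDK1, −0.02519 to 0.1837 for CENPA, −0.02575 to 0.1255 for CENPF, −0.05169 to 0.1953 for ECT2, −0.01269 to 0.2684 for KIF11, −0.01624 to 0.09063 for KIF20A, −0.1993 to 0.02989 for SMC2, −0.03919 to 0.0526 for SPC24 and −0.1047 to 0.09254 for SPC25. The cause of these shifts was not tested. Of the 46 members with a different change between lines, 41 kept the call in every alternative run, as did 23 of the 37 that differed between untreated lines. The 2 libraries per group and the unknown read depth limit the precision of small changes.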
